A study of Mus musculus with 18 samples.

Results

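The loss of the second functional copy of Insm1 was examined by comparing homozygous with heterozygous Insm1 knockout embryos. These 4 homozygous and 6 heterozygous arrays, out of 18 in the study, were chosen by the genotype in their labels, and the comparison covered 16661 of the 23238 probe sets deposited. All embryos were at E13.5 (a stage in embryonic days), the tissue was the dorsal telencephalon, the embryonic forebrain region that forms the neocortex, and 8 wildtype embryos made up the remaining arrays. Homozygous embryos carried the knockout on both copies and heterozygous embryos on 1 copy, so the mutant allele was common to both groups compared. The study's declared aim was to search for targets of Insm1. The sources used here do not give the construction of the allele, the mouse strain or the litters. The p-values therefore reflect the spread among these arrays alone, part of which may be technical.

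Insm1 encodes a zinc finger transcription factor, best known as a repressor, that is made for a short time in cells leaving the progenitor state. In the developing cortex it is found mainly in newly formed basal progenitors and nascent neurons, and it is required there for the normal production of basal progenitors, which divide away from the ventricle and give rise to many cortical neurons. The same factor acts in endocrine cells of the pancreas, the adrenal medulla and the gut.

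Signals were deposited as log2 values for transcript-level probe sets, a scale on which a difference of 1 is a 2-fold change, and all differences are given as homozygous minus heterozygous. The tissue label was checked against defining genes. The cortical genes Emx2, Pax6, Tbr1, Eomes, Neurod2 and Neurod6 lay between 5.53 and 7.63 on all 10 arrays. Of the ventral genes, Gsx2 lay between 0.63 and 1.20, Gad2 between 0.88 and 2.07 and Dlx2 between 2.04 and 2.96. The hindbrain genes Hoxa2 and Hoxb2 lay between 0.09 and 0.81, near the bottom of the scale, and En1 of the midbrain and hindbrain had a mean of 1.30 over all arrays. Emx1 and Nkx2-1 were not analysed here. The choroid plexus gene Ttr ranged from 5.55 to 9.53 and the embryonic globin gene Hbb-y from 8.70 to 9.56, so RNA of those cell types was present. The Y-linked gene Eif2s3y was high, at 4.46 or above, in heterozygous replicates 3, 4 and 6 and in homozygous replicate 4, so the groups were not balanced for sex. Heterozygous replicate 6 and homozygous replicate 2 stood apart: their mean over 14 hypoxia response genes was 5.52 and 5.51, against 4.11 to 4.30 on the other 8 arrays compared. The main results are therefore also given without this pair of arrays.

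Insm1 itself came first. On the homozygous arrays, in the order of replicates 1 to 4, its level was 3.61, 3.54, 3.23 and 2.87. The heterozygous levels ran from 4.02 to 5.17 with a median of 4.89, and the lowest was that of replicate 6. Every homozygous array thus lay below every heterozygous one. Insm1 fell by 1.46 (SE 0.21, 95% interval -1.90 to -1.02, limma adjusted p = 0.00785), to 0.364 of the heterozygous signal. A two-sided exact permutation test over the 210 ways of dividing the 10 arrays gave p = 0.00952, the smallest that this design allows. Without heterozygous replicate 6 and homozygous replicate 2 the difference was -1.68. Insm1 still gave a signal of 3.31 ± 0.34 (SD, n = 4) in homozygous embryos. The sources used here do not place its probes relative to the part of the gene altered in the knockout. Leaving out homozygous replicate 4 gave -1.31 with a limma adjusted p of 0.0709.

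Across the genome, 5 of 16661 probe sets passed an adjusted p of 0.05 in limma, which is 0.0300% of those tested. Of these, 2 were higher in homozygous embryos, Galnt14 and Tacr1 (0.0120%), and 3 were lower, Insm1, Plcb1 and Pde1c (0.0180%). The typical difference was small: the median was -0.02 and the 5th and 95th percentiles were -0.21 and 0.22, beside a median SD within a genotype of 0.14. The half-width of the 95% interval had a median of 0.20, so for a typical transcript a smaller difference could not be resolved, even before adjustment. The adjusted threshold asked for more: the largest unadjusted p that passed in limma was 9.67e-06. Of 118 probe sets that differed by 0.5 or more before rounding, 4 passed. Larger differences can therefore also have been missed with this number of arrays. At an unadjusted p of 0.05, 645 probe sets were higher (3.87%) and 776 lower (4.66%), together 8.53%. The homozygous mean was the lower one for 55.7% of all probe sets. The homozygous values lay outside the whole heterozygous range for 79 probe sets on the high side (0.474%) and 137 on the low side (0.822%), together 1.30%. The number that passed depended on single arrays: leaving out homozygous replicate 4 gave 1 and homozygous replicate 1 gave 31, while leaving out heterozygous replicate 6 gave 12 and heterozygous replicate 1 gave 9. Without the pair of arrays that stood apart 4 passed, 3 higher and 1 lower, and at an unadjusted p of 0.05 the shares were 2.56% higher and 5.23% lower.

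**Figure D1:**
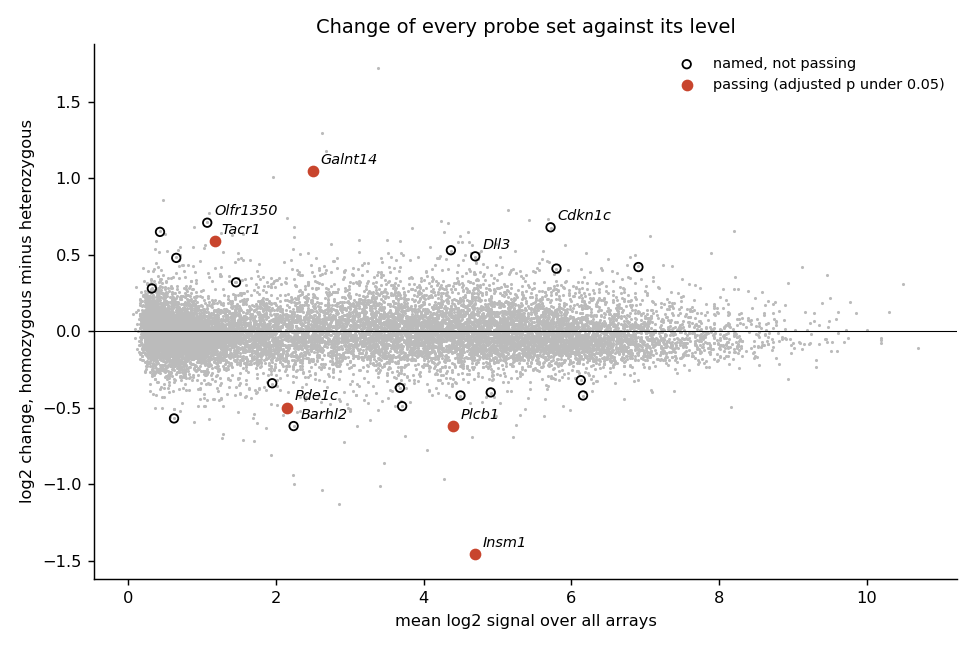
Homozygous minus heterozygous log2 difference of each of the 16661 probe sets (vertical axis) against its mean log2 level over all arrays (horizontal axis), with the 5 probe sets that passed marked and named. Most points lie close to 0, and Insm1 and Galnt14 are the lowest and the highest of those that passed.

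Galnt14 had the smallest p-value of the comparison. It encodes a transferase that attaches the first sugar, N-acetylgalactosamine, to serines and threonines of proteins. Its levels on homozygous replicates 1 to 4 were 3.44, 3.34, 3.10 and 3.52, and the heterozygous levels ran from 2.14 to 2.44 with a median of 2.31. The lowest homozygous array was therefore well above the highest heterozygous one. Galnt14 rose by 1.05 (SE 0.09, 95% interval 0.86 to 1.24, limma adjusted p = 8.72e-06), a 2.07-fold change. It passed in all 33 other fits that were tried, with a change between 0.99 and 1.13. The other 16 measured members of the 17 Galnt genes did not pass, and the median over the 17 was -0.03.

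The promoter of Galnt14 is printed because this gene had the smallest p-value and Insm1 binds DNA. The window of Afap1 is printed beside it because, of the 12 lower genes named below, it alone held a match to the sequence searched. The windows span 250 bases before to 50 bases after a transcription start in RefSeq (GRCm38.p6), 5′ to 3′ on the strand of the gene, and capitals mark matches to the core of the binding consensus described for human INSM1. That core was searched as T and G, then any 3 bases, then G at 4 positions, then any base and C, 11 bases in all, on both strands with overlaps allowed. Galnt14 has its window at chr17:73710402-73710701 on the minus strand, with 2 matches whose first bases lie at -205 and -98 from the start, both on the opposite strand of the gene. Afap1 has its window at chr5:35893069-35893368 on the plus strand, with 1 match at -83, also on the opposite strand.
Galnt14: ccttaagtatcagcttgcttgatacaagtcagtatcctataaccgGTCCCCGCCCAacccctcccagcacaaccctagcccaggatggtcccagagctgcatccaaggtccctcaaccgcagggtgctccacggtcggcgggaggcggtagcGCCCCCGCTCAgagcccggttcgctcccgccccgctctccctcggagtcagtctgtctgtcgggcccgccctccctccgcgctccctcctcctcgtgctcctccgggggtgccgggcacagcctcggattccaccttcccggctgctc
Afap1: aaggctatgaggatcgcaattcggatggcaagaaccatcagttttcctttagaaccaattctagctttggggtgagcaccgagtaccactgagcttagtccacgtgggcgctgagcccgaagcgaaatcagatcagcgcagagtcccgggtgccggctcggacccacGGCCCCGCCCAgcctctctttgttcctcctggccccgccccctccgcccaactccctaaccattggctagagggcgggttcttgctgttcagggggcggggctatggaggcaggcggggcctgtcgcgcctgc
Among all measured genes with a window, 1308 of 11830 (11.1%) held a match. Of the 12 higher genes named in this comparison 9 had a window and 1 held a match, and of the 12 lower genes 10 had a window and 1 held a match, which is near the share of all genes. A match is a description of the letters and not a binding site.

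Tacr1, the receptor for the neuropeptide substance P, was the other gene that rose. Its levels were 1.55, 1.34, 1.80 and 1.73 on homozygous replicates 1 to 4 and 0.93 to 1.17, with a median of 0.98, in heterozygous embryos. All 4 homozygous arrays were above all heterozygous ones, but the levels of both groups lie near the bottom of the scale. The change was 0.59 (SE 0.08, 95% interval 0.42 to 0.76, limma adjusted p = 0.00549). Fitting the 10 arrays of these genotypes alone, without the wildtype arrays, gave an adjusted p of 0.138 in limma, and leaving out homozygous replicate 4 gave 0.55 with an adjusted p of 0.0574.

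Both genes that fell beside Insm1 encode enzymes of second messenger signalling. Plcb1, a phospholipase C that acts downstream of G protein-coupled receptors to release inositol trisphosphate and diacylglycerol, lay at 3.94, 3.86, 3.86 and 3.77 on homozygous replicates 1 to 4. The heterozygous levels were 4.29 to 4.66 with a median of 4.49. The homozygous arrays were close together and all below the heterozygous ones. Plcb1 fell by 0.62 (SE 0.09, 95% interval -0.82 to -0.43, limma adjusted p = 0.00993). In the GRCm38.p6 gene table Plcb1 lies on chromosome 2, as does Insm1. Without heterozygous replicate 6 and homozygous replicate 2 the change was the same size, -0.62, but the limma adjusted p was 0.0673, and without homozygous replicate 4 it was -0.59 with an adjusted p of 0.0709.

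Pde1c, a phosphodiesterase that breaks down cyclic nucleotides when activated by calcium and calmodulin, had levels of 1.70, 1.83, 1.56 and 1.83 on homozygous replicates 1 to 4. In heterozygous embryos it lay between 2.09 and 2.37 with a median of 2.22. The groups did not overlap, and Pde1c fell by 0.50 (SE 0.08, 95% interval -0.67 to -0.32, limma adjusted p = 0.0322). Its homozygous levels were about as dim as those of Tacr1. Of the 5 calls it held in the fewest other fits, 16 of 33. It was lost without homozygous replicate 2, 3 or 4, heterozygous replicate 1, 3 or 4, or wildtype replicate 2, 4 or 6, and without the pair of arrays that stood apart the change was -0.50 with a limma adjusted p of 0.0842.

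**Figure D2:**
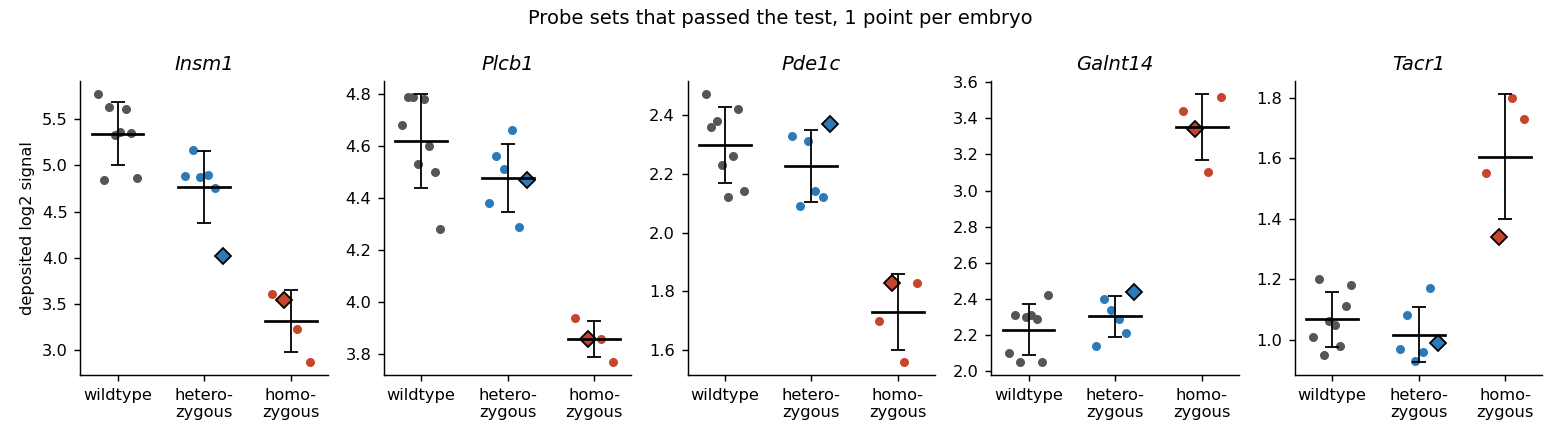
Log2 signal on each array (vertical axis) of the 5 probe sets that passed, by genotype, with horizontal lines at the group means and bars of 1 SD either side. Diamonds mark heterozygous replicate 6 and homozygous replicate 2, and in all 5 genes the homozygous points lie beyond every heterozygous point.

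Beyond those that passed, the next genes by unadjusted p make up 12 named in each direction. None of them passed, and their limma adjusted p ran from 0.106 to 0.178 on the higher side and from 0.0678 to 0.153 on the lower side. On the higher side stood 3 regulators of development. Dll3, a ligand-like protein that dampens Notch signalling inside the cell, lay at 5.04, 4.77, 4.96 and 5.19 on the homozygous arrays and at 4.15 to 4.72 (median 4.58) on the heterozygous arrays, without overlap (0.49, limma adjusted p = 0.106). It was the 1 gene that gained a call when the pair of arrays that stood apart was left out (0.49, limma adjusted p = 0.0474). Cdkn1c, the cyclin-dependent kinase inhibitor p57, which restrains the cell cycle, lay at 5.99, 6.16, 6.54 and 6.38 against 5.08 to 5.93 (median 5.64), also without overlap (0.68, SE 0.14, limma adjusted p = 0.153). Smad3, a transducer of TGF-beta signals, lay at 4.41, 5.01, 4.65 and 4.79 against 3.89 to 4.47 (median 4.22), so that replicate 1 lay within the heterozygous range (0.53, limma adjusted p = 0.129).

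The remaining higher genes were the glycolipid anchor gene Pigx (0.41), the ephrin ligand gene Efna1 (0.32), the tetraspanin gene Tspan31 (0.42), the olfactory receptor genes Olfr130 (0.65), Olfr1350 (0.71) and Olfr149 (0.48), and the secretoglobin gene Scgb3a2 (0.28). Of the 12 higher genes 6 had a mean under 1.5, at the dim end of the arrays, and for 10 the groups did not overlap.

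On the lower side, Robo2, a receptor for Slit proteins that steers axons, lay at 5.80, 5.77, 5.71 and 5.61 on homozygous replicates 1 to 4 and at 5.91 to 6.39 (median 6.14) in heterozygous embryos (-0.42, SE 0.08, limma adjusted p = 0.0803). St18, a zinc finger factor of the Myt1 family, lay at 3.28, 3.12, 3.21 and 3.30 against 3.53 to 3.90 (median 3.72), a difference of -0.49 (limma adjusted p = 0.0899). The neuronal RNA-binding protein gene Elavl4 lay at 5.76, 5.82, 5.85 and 5.87 against 6.04 to 6.23 (median 6.16), a difference of -0.32 (limma adjusted p = 0.153). In each of these 3 genes all homozygous arrays were below all heterozygous ones, though none passed.

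The other lower genes were Ttc5 (-0.57), Lamb1, which encodes a laminin chain of basement membranes (-0.37), the signal transducer and transcription factor gene Stat3 (-0.42), the homeobox gene Barhl2 (-0.62), the actin-binding protein gene Afap1 (-0.40) and the heat shock protein family gene Hspa12a (-0.34). In all 12 lower genes the groups did not overlap, and 1 of the 12 had a mean under 1.5. Choosing genes by their p-value favours groups that do not overlap, so these counts describe the genes and support nothing.

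Groups of genes with a common role were then described by the number of members at an unadjusted p of 0.05, beside 3.87% (higher) and 4.66% (lower) of all probe sets, and by their median change, beside -0.02 for all. Counts of members with a lower mean stand beside 55.7% of all probe sets. The lists and their members were chosen with earlier results of these data known, so their counts and medians describe these arrays and support nothing further. Apart from Galnt14, no member of the 28 lists passed. In bulk tissue, fewer cells of a type and less RNA per cell cannot be told apart.

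Genes of cortical neurons were mostly lower. Of 25 measured, 24 had a lower mean in homozygous embryos and 11 reached an unadjusted p of 0.05, all lower, with a median of -0.19. The 3 neuronal RNA-binding protein genes Elavl4, Elavl3 (-0.39) and Elavl2 (-0.29) were among them, with the intermediate filament genes Ina (-0.40) and Nefm (-0.46) and the transcription factor gene Neurod2 (-0.40). Averaged over the list, the homozygous arrays lay between 5.77 and 5.82 and the heterozygous arrays between 5.90 and 6.19, without overlap. The wildtype arrays lay between 5.99 and 6.31. Without the pair of arrays that stood apart the median was -0.22, and 24 of 25 means were still lower.

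Cajal-Retzius neurons, the early cells at the surface of the cortex that secrete reelin, gave a like picture. Of 12 measured genes 10 were lower on average, 4 of them at an unadjusted p of 0.05, and the median was -0.21. Those 4 were the transcription factor genes Ebf3 (-0.37), Lhx5 (-0.38), Nhlh2 (-0.27) and Trp73 (-0.24), whereas Reln, the gene for reelin itself, had values of 6.42, 6.48, 6.34 and 5.54, which overlapped the heterozygous ones of 6.49 ± 0.39 (SD, n = 6). The list mean was 2.45 to 2.50 on the homozygous arrays and 2.61 to 2.72 on the heterozygous arrays. Cortical neurons and Cajal-Retzius neurons were the 2 lists of the 28 whose homozygous means all lay below the heterozygous ones, and in 0 lists did they all lie above. Which lists separated depended on the pair of arrays that stood apart. Without that pair the Myt1 family (4.01 to 4.09 against 4.14 to 4.43) and the neurosecretory genes (3.25 to 3.32 against 3.35 to 3.48) separated as well.

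The newborn neuron and basal progenitor factors, the cells in which Insm1 is active, had a median of -0.09 over 16 genes, with 4 lower and 1 higher at an unadjusted p of 0.05. Without heterozygous replicate 6 the median was -0.16, and without the pair of arrays that stood apart it was -0.15, with 5 lower and 0 higher. With the ventral list mean as a covariate it was -0.03. Neurod4, a proneural factor, lay at 1.02, 1.24, 1.76 and 1.40 in homozygous embryos and at 1.33 to 2.88 (median 2.34) in heterozygous embryos, a difference of -0.94 (SE 0.22, limma adjusted p = 0.18). The heterozygous minimum was that of replicate 6, and the homozygous values lie near the bottom of the scale. Nhlh1, a factor of nascent neurons, differed by -0.49 (SE 0.12, limma adjusted p = 0.18). Both Neurod4 and Nhlh1 passed when heterozygous replicate 6 was left out, but not without the pair of arrays that stood apart. Neurod4 also passed with the 75th percentile of each array as a covariate. Eomes, the factor that defines basal progenitors, lay at 6.67, 6.48, 6.51 and 6.68 against 6.44 to 6.96 (median 6.90), a difference of -0.23 (95% interval -0.42 to -0.05), and the groups overlapped.

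Apical progenitors, the dividing cells that line the ventricle, had a median of 0.07 over 18 genes, with 12 means higher and 6 lower, and 4 genes higher and 1 lower at an unadjusted p of 0.05. Without the pair of arrays that stood apart the median was -0.00, with 3 higher and 1 lower. Veph1 lay at 1.41, 1.62, 1.46 and 1.58 against 1.19 to 1.27 (median 1.24), without overlap but near the bottom of the scale (0.28, limma adjusted p = 0.299). Fabp7, a fatty acid binding protein of radial glia, lay at 6.47, 6.44, 7.47 and 7.04 against 6.10 to 6.56 (median 6.45), so that replicates 3 and 4 were high and replicates 1 and 2 within the heterozygous range. Hes5, a Notch target, was high on a single array, at 7.33, 8.60, 7.17 and 7.26 against 6.97 to 7.42 (median 7.11). Lhx2, a factor that specifies cortical identity, was lower by a small amount (-0.19, 95% interval -0.30 to -0.08, limma adjusted p = 0.3). For S phase genes the median was -0.04 over 24 and for G2 and M phase genes -0.08 over 25.

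**Figure D3:**
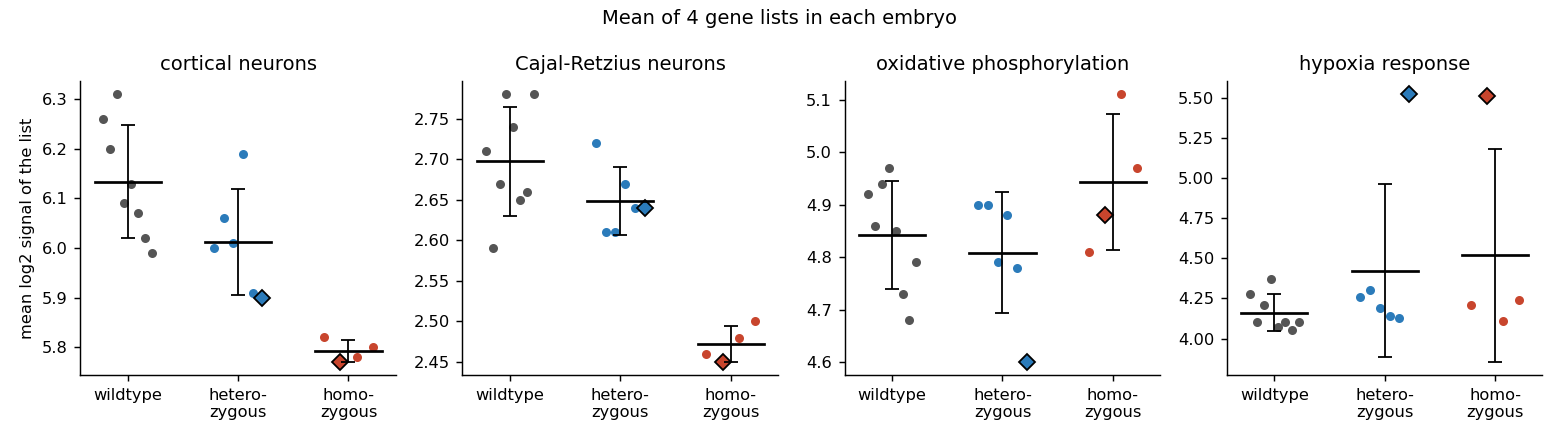
Mean log2 level of 4 gene lists (cortical neurons, Cajal-Retzius neurons, oxidative phosphorylation, hypoxia response) on each array (vertical axis), by genotype, with group means and bars of 1 SD either side. Diamonds mark heterozygous replicate 6 and homozygous replicate 2; for cortical neurons and for Cajal-Retzius neurons all 4 homozygous points lie below all heterozygous points.

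Axon guidance and adhesion genes had a median of -0.12 over 38, with 28 means lower and 10 higher. The semaphorin gene Sema6d lay at 4.81, 4.49, 4.65 and 5.04 against 4.98 to 5.59 (median 5.26), a difference of -0.55 (SE 0.12, limma adjusted p = 0.153). L1cam, an adhesion molecule of growing axons, differed by -0.44 and the adhesion molecule Dscam by -0.35. The ephrin receptor gene Epha7 differed the other way, at 4.94, 5.12, 5.09 and 4.98 against 4.58 to 4.89 (median 4.77), without overlap (0.28, limma adjusted p = 0.263). Means were lower for 18 of 25 synaptic genes (median -0.09) and for 11 of 16 neurosecretory genes (median -0.07). The share of all probe sets was 55.7%. The farthest of the neurosecretory genes was the secretogranin gene Scg3 (-0.38).

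The partners of Insm1 were also examined. Insm1 acts with a corepressor complex that removes methyl and acetyl groups from histones. Of 13 such genes 3 reached an unadjusted p of 0.05, all lower: Gse1 (-0.31), Rcor2 (-0.22) and Kdm1a, the histone demethylase LSD1 (-0.13). Their median was -0.07. In the Notch pathway the median was -0.03 over 22 genes, with Dll3, Dll1 (0.23) and Hes5 (0.44), which rests on the single high array given above, higher and Maml1 (-0.27) lower at that threshold. Among 7 cyclin-dependent kinase inhibitor genes 2 were higher at that threshold, Cdkn1c and Cdkn3 (0.22).

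Genes of energy metabolism leaned the other way. Of 55 oxidative phosphorylation genes 40 had a higher mean and 12 reached an unadjusted p of 0.05, all higher, with a median of 0.15. The complex I subunit gene Ndufb5 lay at 6.49, 6.64, 6.68 and 6.54 against 6.18 to 6.38 (median 6.33), without overlap (0.28, SE 0.07, limma adjusted p = 0.233). Cox6b1, a subunit of cytochrome oxidase, lay at 7.39, 7.33, 7.38 and 7.35 against 6.90 to 7.25 (median 7.05). Of 68 mitochondrial ribosomal protein genes 55 had a higher mean and 6 reached an unadjusted p of 0.05, all higher, with a median of 0.10. The arrays did overlap in their list means, at 4.81 to 5.11 for homozygous and 4.60 to 4.90 for heterozygous oxidative phosphorylation genes. The wildtype arrays lay between 4.68 and 4.97. For mitochondrial ribosomal protein genes the list means were 4.24 to 4.46 in homozygous, 3.92 to 4.35 in heterozygous and 4.12 to 4.43 in wildtype embryos. In both lists the lowest heterozygous mean was that of replicate 6. Without the pair of arrays that stood apart the medians were 0.13 and 0.10. At an unadjusted p of 0.05, 8 of the 55 and 2 of the 68 were then higher, beside 2.56% of all probe sets.

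The 3 genes of the Myt1 family had a median of -0.18, which is the value of Myt1 itself. The sign of that median held in all 33 other fits, as it did for the endothelial (-0.04) and microglial (-0.04) lists, among others. St18 (-0.49) and Myt1 (-0.18) were lower at an unadjusted p of 0.05, while Myt1l differed by 0.06. The remaining lists gave small medians: 0.05 for 21 cytosolic ribosomal protein genes, 0.01 for 15 apical junction genes, -0.02 for 14 immediate early and heat shock genes and 0.05 for 14 hypoxia response genes. The sign of the median changed in 17 of the 33 other fits for the apical junction genes and in 9 for the choroid plexus and hem genes. It changed in 7 for the Wnt and Bmp genes, in 6 for hypoxia response, in 5 for the Notch pathway and in 4 for the cyclin-dependent kinase inhibitors.

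**Figure D4:**
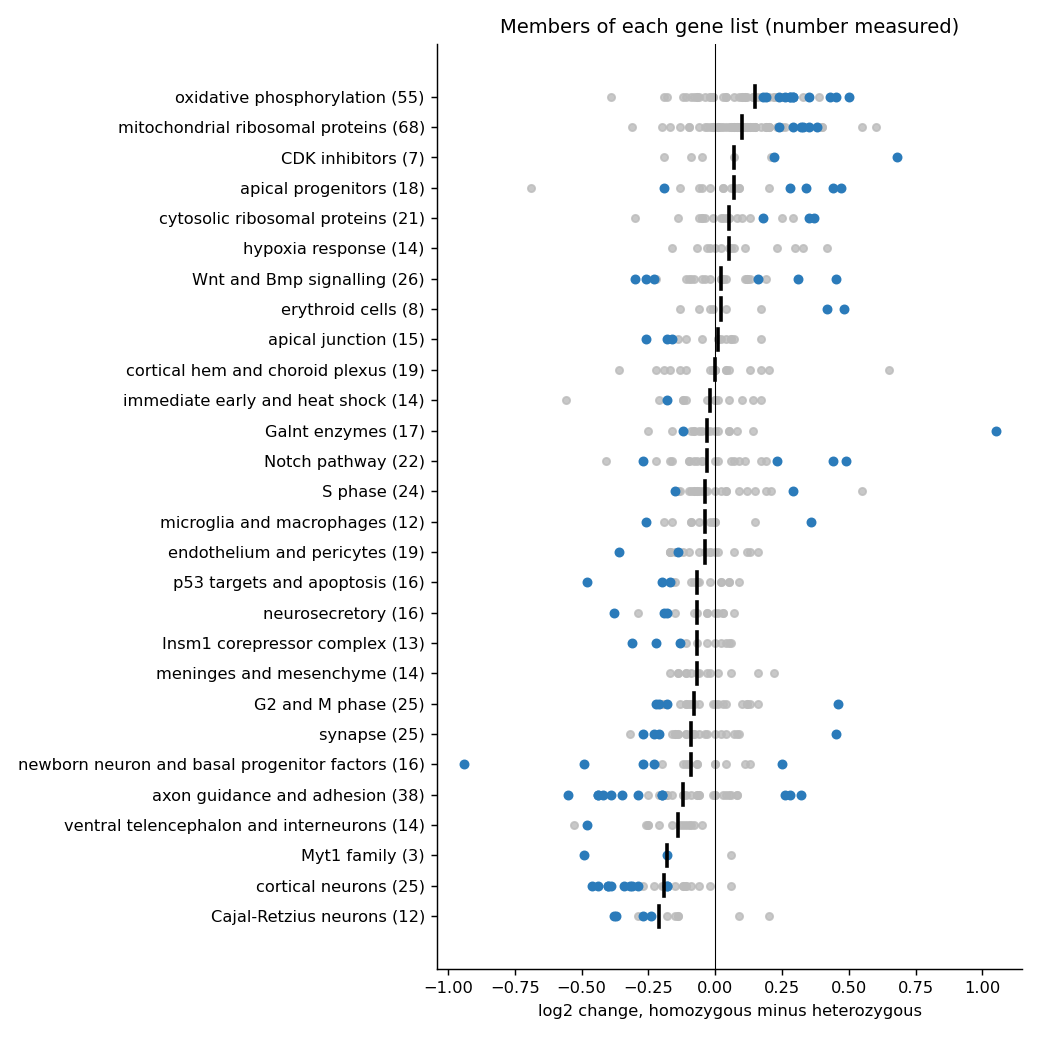
Homozygous minus heterozygous log2 difference (horizontal axis) of each measured member of the gene lists (rows). Blue points have an unadjusted p under 0.05, grey points do not, and black ticks are list medians, which run from -0.21 for Cajal-Retzius neurons to 0.15 for oxidative phosphorylation.

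Markers of other cell types give the makeup of the samples beside these differences. All 14 ventral telencephalon genes had a lower mean (median -0.14), with Dlx5 differing by -0.48; their summed linear signal was 57 to 94 in homozygous and 73 to 91 in heterozygous embryos. Dlx2 and Gad2 each differed by -0.25, with overlapping groups, and Gsx2 lay near the bottom of the scale in both. Of 8 erythroid genes 4 were higher and 4 lower, with the globin gene Hbb-y at 9.56, 9.47, 9.14 and 9.29 against 8.70 to 9.25 (median 8.88), and the summed signal was 593 to 798 against 445 to 648. For 19 choroid plexus and hem genes the median was -0.00, for 14 meningeal genes -0.07, for 19 endothelial genes -0.04 and for 12 microglial genes -0.04. Summed signals were 316 to 897 against 194 to 979, 73 to 105 against 69 to 107, 91 to 109 against 99 to 109 and 27 to 30 against 24 to 31, in the same order. With the ventral list mean as a covariate 1 probe set passed, Galnt14, and with the erythroid list mean 5 passed, of which 3 were among the original 5. The part of these cell types in the other results was not tested.

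The heterozygous arrays also allow the loss of the second allele to be set beside that of the first. The comparison with wildtype shares the heterozygous arrays, so the values are given side by side. The steps are log2 differences, so equal steps mean equal fold changes and not equal amounts of signal lost per allele. Insm1 was -0.57 from wildtype to heterozygous and -1.46 from heterozygous to homozygous. For Galnt14 the steps were 0.07 and 1.05, for Tacr1 -0.05 and 0.59, for Plcb1 -0.14 and -0.62, and for Pde1c -0.07 and -0.50. In a test of the difference between the steps across all probe sets, 1 of 16661 passed in limma (0.00600%), which was Galnt14 (0.97, adjusted p = 0.0285), while 964 reached an unadjusted p of 0.05 (5.79%). In 18 of the 32 other fits of that contrast 0 probe sets passed, among them those without heterozygous replicate 1, 2, 3, 4 or 5, without homozygous replicate 4, or without wildtype replicate 2, 4, 5 or 6. For Tacr1 the difference between the steps was 0.64 (limma adjusted p = 0.409), for Dll3 0.68 (adjusted p = 0.413) and for Ttc5 -0.91 (adjusted p = 0.168). For Insm1 the difference between the steps was -0.89 (SE 0.33), with a limma unadjusted p of 0.0155. It did not pass after adjustment over all probe sets (limma adjusted p = 0.814).

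**Figure D5:**
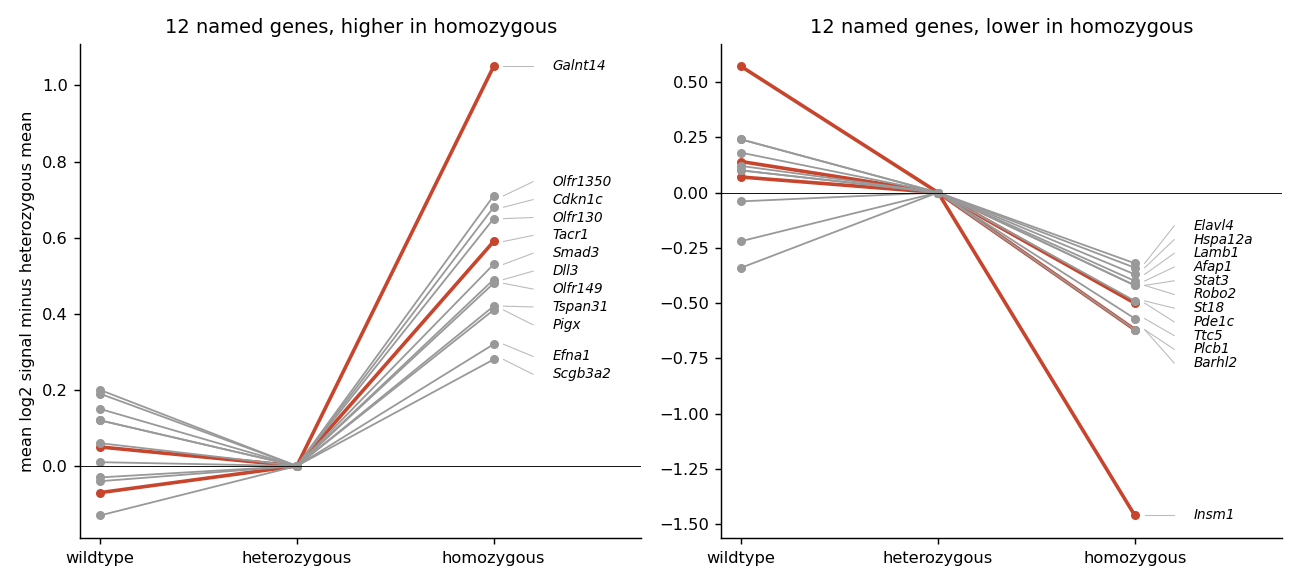
Mean log2 level of named genes in wildtype, heterozygous and homozygous embryos (horizontal axis), relative to the heterozygous mean (vertical axis). Red lines are the genes that passed between heterozygous and homozygous; Galnt14 runs flat from wildtype to heterozygous (0.07) and then rises by 1.05.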

How the data were processed

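Total RNA from E13.5 dorsal telencephalon was hybridized to Affymetrix whole-transcript arrays, 1 per sample. The deposited values are log2 signals that the authors made with RMA (background correction, quantile normalization, probe summary) in Affymetrix Expression Console 1.1, per the submitters' processing notes. The quantile step acts on probes, and the deposited probe set values tested here were not equal in distribution: the 75th percentile of an array ran from 4.50 to 4.87. No counts exist, so the number of arrays limits the precision.

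Of 23238 probe sets, the 16661 with identifiers of 6700000 or above were tested; 6577 with lower identifiers have no gene name here. Of those tested, 14939 had 1 gene symbol, 989 several and 733 none. limma 3.58.1 in R 4.3.3 (lmFit, eBayes) fitted a mean per genotype to all 18 arrays, which share 1 estimate of the spread. Two-sided p-values of homozygous minus heterozygous were adjusted by Benjamini-Hochberg over the 16661. No level filter, covariate or block was used. In the lists a gene was represented by its probe set with the highest mean.

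Named genes were Insm1; the passing probe sets and then those with the smallest unadjusted p, up to 12 per direction; 3 per list; and 3 per direction for unequal steps. Others are list members or were chosen after their values were seen. The members and lists were chosen with earlier results of these data known. The fit was tested on simulated data. Alternatives were array weights, a trended prior, quantile normalization, centring, covariates, a replicate block, filters, thresholds and left-out arrays. A pairing by replicate number was not seen: deviations of same-numbered homozygous and heterozygous arrays correlated between -0.212 and 0.147. Correlations of so few arrays cannot tell whether same-numbered arrays shared a litter or batch.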

Additional observations from a re-analysis of the deposited data

Results flagged for a closer look

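Single arrays lay far from the rest of their genotype in 21 of 262 groups of values examined. An array was marked where its gap to the nearest other array, divided by the range of the group, exceeded Dixon's 95% critical value, a level that by its construction marks about 1 in 20 groups by chance. Heterozygous replicate 6 was marked most often: Insm1 (4.02, the others 4.76 to 5.17), Pard3 (6.11), Myt1 (5.35), Hspa1a (2.77, the others 0.26 to 0.96), Slc2a1 (8.92, the others 6.61 to 7.13) and Ndufb5 (6.18). The list means of that array also stood apart for microglia (0.91), the Notch pathway (4.58) and hypoxia response (5.52). Homozygous replicate 2 stood apart for hypoxia response (5.51) and for Hes5 (8.60, the others 7.17 to 7.33).

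Other arrays were marked for few values each. Heterozygous replicate 4 was low for Efna1 (1.27) and high for Hspa12a (2.28), heterozygous replicate 3 was high for C1qc (1.57) and low for the endothelial list (1.99), and heterozygous replicate 5 was high for Bmf (3.32). Homozygous replicate 3 was high for Olfr130 (1.56) and low for Barhl2 (1.62) and Kdm1a (7.69). Homozygous replicate 4 was high for Ndrg1 (3.92) and Smad1 (5.76).

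Galnt14 differed between the allele steps in the main fit: the step from heterozygous to homozygous exceeded that from wildtype to heterozygous by 0.97 (limma adjusted p = 0.0285). In 18 of the 32 other fits of that contrast 0 probe sets passed, so this call depended on the processing and on single arrays.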

How the results depend on the processing

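The count of 5 passing probe sets depended on the processing. It was 3 with array weights, 26 with the 75th percentile of each array as a covariate, 1 with the ventral list as a covariate, 13 with median centring (6 higher, 7 lower), 2 with the 10 arrays alone, 21 with quantile normalization (9 higher, 12 lower) and 9 at an adjusted p of 0.1. With the replicate number as a block it was 1. Leaving out 1 array at a time gave 1 to 31, and the arrays that moved it most are named with the result. Galnt14 passed in each of the 33 fits. Insm1 kept its direction, from -1.61 to -1.31 with 1 array left out and -1.68 without the pair that stood apart, but did not pass with the erythroid (-1.39) or ventral (-1.33) covariate, with the 10 arrays alone (-1.46) or with the replicate block (-1.54). Plcb1 passed in 27 fits, Insm1 in 28, Tacr1 in 29 and Pde1c in 16. Unequal allele steps gave 0 calls in limma with the erythroid or ventral covariate, centring, quantile normalization, the replicate block, a trended prior, the whole table, without heterozygous replicate 6 and homozygous replicate 2, and at an adjusted p of 0.01, and 0 to 3 with 1 array left out; the fits with 0 calls had 817 to 1358 probe sets at an unadjusted p of 0.05. Some differences changed sign, not only small ones. Slc2a1 (0.33 in the main fit, SE 0.40) was -0.00 with the erythroid covariate. With arrays left out it ran from -0.17 (without homozygous replicate 2) to 0.67. Adm (0.42, SE 0.35) ran from -0.08 (without homozygous replicate 2) to 0.68, and Myt1l (0.06) from -0.01 (without homozygous replicate 3) to 0.14. The cause of these shifts was not tested. Differences near the bottom of the scale, as in Tacr1 and in the homozygous levels of Pde1c, are limited by the dim signal.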

Other observations

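Some wide mean differences did not pass. These genes were chosen after their values were seen: 16 probe sets differed by 0.75 or more without passing, 9 with 1 symbol, of which 2 were Y-linked. Mt2, a metallothionein that binds zinc and copper, lay at 2.45, 5.67, 5.64 and 4.23 on homozygous replicates 1 to 4 and at 2.25 to 3.48 (median 2.77) in heterozygous embryos, a difference of 1.72 (SE 0.44, limma adjusted p = 0.237). Homozygous replicate 1 lay within the heterozygous range and the other 3 above it. Vxn, which encodes vexin, a protein that promotes neurogenesis in frog embryos, lay at 3.03, 2.88, 4.19 and 3.66 against 1.39 to 2.64 (median 2.37), so that the groups did not overlap (1.18, SE 0.31, limma adjusted p = 0.24).

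Slitrk1, a membrane protein of growing neurites, lay at 3.78, 4.17, 3.28 and 3.29 against 4.11 to 5.04 (median 4.61), a difference of -0.97 (SE 0.31, limma adjusted p = 0.403), with replicate 2 inside the heterozygous range. Insm2, the paralog of Insm1, lay near the bottom of the scale, at 0.99, 0.97, 0.74 and 1.14 against 1.16 to 1.58 (median 1.35), a difference of -0.39 (limma adjusted p = 0.178). Bmf, a proapoptotic member of the Bcl2 family, differed by -0.48 (95% interval -0.71 to -0.25, limma adjusted p = 0.177), while the 16 genes of the p53 and apoptosis list had a median of -0.07.

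In the Wnt and Bmp lists, Smad1, which carries Bmp signals, lay at 5.63, 5.63, 5.63 and 5.76 against 5.83 to 6.12 (median 5.95), without overlap (-0.30, limma adjusted p = 0.153), and the Wnt effector Lef1 differed by -0.26. Others differed the opposite way: the ligand gene Wnt7a lay at 2.41, 2.89, 2.99 and 2.86 against 2.35 to 2.64 (median 2.47), a difference of 0.31 (limma adjusted p = 0.374), and the Bmp target Id3 differed by 0.45. At an unadjusted p of 0.05, 3 of the 26 genes were higher and 3 lower, and the list median was 0.02.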
